A study of Homo sapiens with 12 samples.

Results

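The expression of 10 genes that sit at the output end of the RAF-MEK-ERK pathway was examined in A375, an established line of human melanoma cells with a mutant BRAF kinase. They are the Sprouty genes SPRY1, SPRY2 and SPRY4, the related genes SPRED1 and SPRED2, the ETS transcription factor genes ETV1, ETV4 and ETV5, and PHLDA1 and EPHA2. They were chosen by name as genes that ERK drives or that feed back on it, and make up 10 of the 20263 genes in the deposited table. RNA-seq was available for 12 samples in 4 groups of 3, all of wild-type genotype by their labels. Ctrl cells received neither agent, DdBIC cells received DdBIC (DBIC in the labels), Hemin cells received hemin, and DdBIC+Hemin cells received both. DdBIC is dodecyl 1H-benzo[d]imidazole-5-carboxylate, a ligand of the nuclear receptor Nur77, and hemin is a soluble form of heme. The doses and treatment times behind these libraries are not given in the sources used here. The general culture methods of the study say that serum was lowered while cells were under DdBIC, and whether the Ctrl and Hemin libraries had the same serum is not stated. The statistics section of the study refers in general to independent experiments, but does not say of these libraries whether the 3 samples of a group came from separate cultures, so the p-values measure only the spread between these samples, which may be technical.

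ERK is the last kinase of the RAS-RAF-MEK-ERK cascade, and in BRAF-mutant melanoma the cascade runs without a growth factor signal. Active ERK raises the transcription of genes that restrain the pathway in return. Sprouty proteins act between the receptor tyrosine kinases and RAF, and SPRED proteins bring the RAS GTPase-activating protein neurofibromin to the membrane. The PEA3 factors ETV1, ETV4 and ETV5 carry part of the transcriptional output, and their genes are held down by the repressor CIC, which ERK signaling relieves. PHLDA1 is a pleckstrin homology-like protein whose mRNA follows ERK activity, and EPHA2 is a receptor tyrosine kinase for ephrin-A ligands that is also induced through ERK.

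The total count per library was 37951275 to 44358912, and 3 counts, the limit that a count of 0 allows, corresponded to 0.0676 to 0.0790 CPM (the count scaled to a common library size). The 100 genes with the most counts took 17.3% to 17.7% of a library with DdBIC, 18.3% to 18.5% in Ctrl, 18.7% to 18.9% in Hemin and 19.0% to 19.5% in DdBIC+Hemin, and mitochondrial genes took 2.42% to 2.99% with DdBIC and 2.90% to 3.43% in the other groups. Genes detected numbered 15669 to 15730 with DdBIC, 15536 to 15566 in Ctrl, 15494 to 15597 in Hemin and 15606 to 15770 in DdBIC+Hemin. The part of these library traits in the results was not tested. Replicates of a group correlated at 0.992 to 0.993 in log2 CPM across genes. HMOX1, which encodes heme oxygenase and responds to heme, was at 7.99 to 9.19 CPM in Ctrl, 7.26 to 8.73 in DdBIC, 61.9 to 65.5 in Hemin and 146 to 188 in DdBIC+Hemin, so both groups labelled with hemin stood apart. The 9 melanocyte lineage markers summed to 648 to 676 CPM in Ctrl, 742 to 803 in DdBIC, 575 to 583 in Hemin and 583 to 672 in DdBIC+Hemin. SOX10 made up most of that sum, and the pigment genes TYR, TYRP1, DCT, PMEL and MLANA each averaged under 1 CPM. The 3 markers of undifferentiated melanoma summed to 643 to 671, 574 to 599, 674 to 708 and 677 to 691 CPM in the same order of groups. AXL and NGFR made up nearly all of this sum. SOX9, the third, averaged 1.85 CPM in Ctrl and 3.92 in DdBIC. Among other cell types, the leukocyte marker PTPRC and the keratinocyte marker KRT1 had no count in any library. The leukocyte list summed to at most 1.30 CPM, the epithelial list to 0.295, the endothelial list to 2.03 and the keratinocyte list to 3.92. The fibroblast list reached 21.9 to 22.9 CPM with DdBIC and 25.4 to 28.9 in the other groups, mostly PDGFRB and LUM. The melanocyte, undifferentiated melanoma and fibroblast sums moved with DdBIC. SOX10, AXL and NGFR went with the sums of their lists, which they largely make up, so this adds nothing to the sums. SOX9 went against its own. S100B of the melanocyte list also went against its sum, averaging 9.47 CPM in Ctrl and 7.38 in DdBIC. With hemin alone the melanocyte sum was below Ctrl and the undifferentiated melanoma sum above it. SOX10, AXL and NGFR again moved with these sums. S100B and SOX9 again went against theirs, averaging 11.8 and 1.40 CPM in Hemin. The part of these sums in the results on the 10 genes was not tested. In bulk RNA, fewer cells of a type and less RNA per cell cannot be told apart.

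Promoter windows are printed for SPRY2, SPRY4, PHLDA1 and EPHA2, the genes of the 10 that rose with DdBIC. The windows run from 250 bases before to 50 bases after a RefSeq transcription start on GRCh38.p14, and 8 of the 10 genes had at least 1 window (17 windows in all), the exceptions being ETV4 and ETV5. Each window was searched on both strands for the CIC octamer (TGAATGAA or TGAATGGA), the AP-1 element (TGANTCA), the ETS core (CCGGAA), the cyclic AMP response element (TGACGTCA) and the CArG box of serum response factor. None of these motifs overlapped another in the windows printed. Of all 35116 promoter windows, 2.63% held the CIC octamer, 7.71% the AP-1 element, 17.2% the ETS core, 1.85% the cyclic AMP response element and 1.29% the CArG box. Sequences are on the strand of the gene, 5′ to 3′, and capitals mark a motif.

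The EPHA2 window (chr1:16156020-16156319, minus strand) held a cyclic AMP response element that begins 51 bases before the start and a CIC octamer that begins 34 bases before it. The most upstream of the 3 SPRY2 windows (chr13:80341077-80341376, minus strand) held an ETS core 142 bases before the start. The other SPRY2 windows, not printed, held none of the 5 motifs. The PHLDA1 window (chr12:76031727-76032026, minus strand) held an ETS core on the opposite strand, read here as TTCCGG, 89 bases before the start. The SPRY4 window (chr5:142324198-142324497, minus strand) held none of the 5 motifs. The starts used for SPRY4 (142324247) and PHLDA1 (76031776) lie inside these genes as deposited. Their deposited 5′ ends, at 142325040 and 76033932, fall outside the windows and were not searched.
EPHA2: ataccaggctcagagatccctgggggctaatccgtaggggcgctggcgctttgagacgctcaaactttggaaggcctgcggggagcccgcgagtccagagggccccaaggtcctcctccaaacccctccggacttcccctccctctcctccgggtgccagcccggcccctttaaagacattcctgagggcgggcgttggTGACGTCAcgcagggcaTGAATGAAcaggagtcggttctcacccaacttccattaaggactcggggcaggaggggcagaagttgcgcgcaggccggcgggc
SPRY2: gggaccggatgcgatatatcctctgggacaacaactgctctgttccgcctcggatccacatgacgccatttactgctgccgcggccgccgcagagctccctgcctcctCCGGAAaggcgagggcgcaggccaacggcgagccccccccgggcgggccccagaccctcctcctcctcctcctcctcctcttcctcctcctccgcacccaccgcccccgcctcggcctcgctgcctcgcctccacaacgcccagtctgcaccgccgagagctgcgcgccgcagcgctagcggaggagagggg
PHLDA1: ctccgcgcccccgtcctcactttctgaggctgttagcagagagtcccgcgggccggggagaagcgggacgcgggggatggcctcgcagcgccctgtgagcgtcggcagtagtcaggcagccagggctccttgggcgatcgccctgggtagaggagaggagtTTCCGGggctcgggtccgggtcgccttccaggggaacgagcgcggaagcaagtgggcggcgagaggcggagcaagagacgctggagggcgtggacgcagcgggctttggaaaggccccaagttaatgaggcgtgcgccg
SPRY4: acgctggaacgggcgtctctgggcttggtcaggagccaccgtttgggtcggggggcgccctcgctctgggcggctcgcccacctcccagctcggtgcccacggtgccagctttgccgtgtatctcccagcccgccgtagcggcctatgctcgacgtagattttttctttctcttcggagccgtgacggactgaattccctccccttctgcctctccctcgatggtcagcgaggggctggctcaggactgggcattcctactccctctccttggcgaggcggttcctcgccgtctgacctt
No motif was shared by all 4 of these windows. Elsewhere among the genes, the CIC octamer was found in 1 ETV1 window, 125 bases before the start, and the AP-1 element in 1 SPRED2 window. The ETS core was also present in windows of SPRY1 and ETV1. A match is a run of letters and not a shown binding site.

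In untreated cells the genes spanned a wide range of expression. By TPM, the length-scaled unit that the authors deposited, ETV4 was highest at 215 ± 2.74 (SD, n = 3), followed by SPRY2 at 196 ± 6.49 and EPHA2 at 193 ± 3.48. PHLDA1 was at 161 ± 2.35 TPM, SPRY4 at 95.6 ± 7.79 and ETV5 at 87.6 ± 2.71. SPRED2 was at 58.8 ± 0.821 TPM, SPRED1 at 29.7 ± 1.33, ETV1 at 18.3 ± 1.88 and SPRY1 at 2.99 ± 0.748. The ranges of neighbours in this order overlapped for SPRY2 with EPHA2 and for SPRY4 with ETV5, and for no other neighbours. Thus SPRY2 and SPRY4 were the main Sprouty transcripts and SPRY1 was rare, and ETV4 exceeded ETV5 and ETV1. SPRY3, the remaining Sprouty gene, averaged 1.40 CPM in Ctrl, and SPRED3 22.1 CPM. The length implied by count and FPKM differed between libraries by up to 1.34 times, in ETV1, so differences between groups were tested on counts only.

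**Figure D1:**
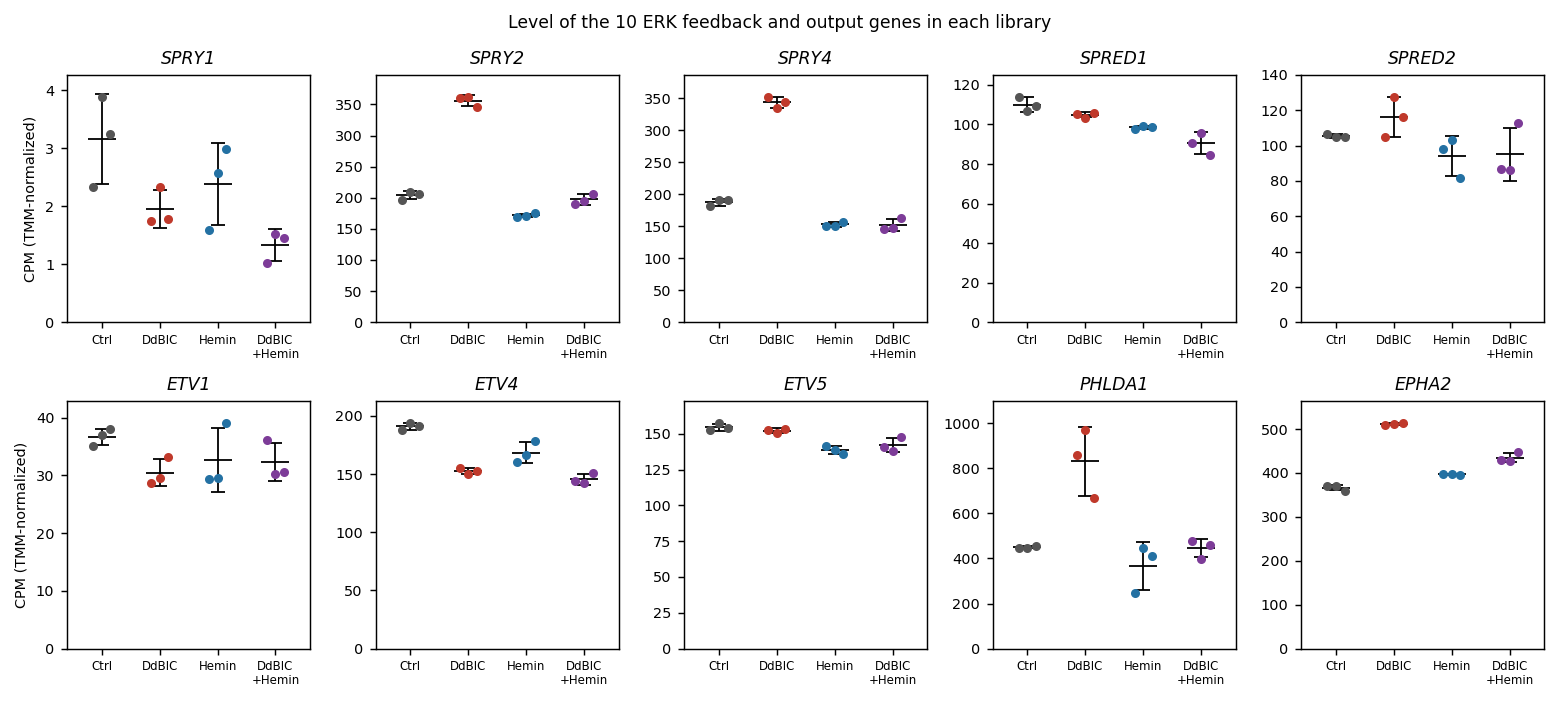
Level of each of the 10 genes in CPM (TMM-normalized) on a linear axis from 0, with 1 point per library, a horizontal line for the group mean and bars for the SD (n = 3). In the DdBIC column SPRY2, SPRY4, PHLDA1 and EPHA2 stand above every other group, and SPRY1, SPRED1, ETV1, ETV4 and ETV5 have their highest mean in Ctrl.

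DdBIC was first compared with Ctrl. SPRY2, SPRY4, PHLDA1 and EPHA2 rose and ETV4 fell, while SPRY1, SPRED1, SPRED2, ETV1 and ETV5 did not pass the test. The test was edgeR's quasi-likelihood test over 14287 genes with Benjamini-Hochberg adjustment, and a gene was called at an adjusted p under 0.05. All 10 genes entered it. Of all genes tested, 20.0% were called higher with DdBIC and 17.2% lower, against 4 and 1 of the 10. With upper-quartile normalization, a different scaling of the libraries, 8 of the 10 genes were called, since SPRY1, SPRED1 and ETV1 then passed as lower, and the share of all called genes that was higher went from 53.8% to 40.0%. The median log2 fold change of the 10 genes was 0.058, and that of all genes tested was -0.0082.

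SPRY2 (ENSG00000136158, chromosome 13, 80335976 to 80340951 on hg38, the build of all gene positions here), which encodes a receptor-proximal inhibitor of RAS-ERK signaling, was at 197, 209 and 205 CPM in the Ctrl libraries and at 361, 362 and 346 with DdBIC. The DdBIC libraries all lay far above Ctrl and close to each other. The rise was 1.75-fold, a log2 fold change of 0.80 (standard error, SE, 0.036, adjusted p = 2.52e-08), and 7.64% of all genes tested changed by more. SPRY4 (ENSG00000187678, chromosome 5, 142310427 to 142325040), which also encodes an inhibitor of the pathway, was at 181, 191 and 191 CPM in Ctrl and at 352, 335 and 344 with DdBIC. Its groups did not overlap either. It changed by 0.87 on the log2 scale (SE 0.044, adjusted p = 6.64e-08), or 1.83-fold.

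SPRY1 (ENSG00000164056, chromosome 4, 123396795 to 123403760) was at 2.33, 3.88 and 3.25 CPM in Ctrl and at 1.75, 2.34 and 1.77 with DdBIC, from counts of 68 to 154. The lowest Ctrl library was level with the highest DdBIC library. The SPRY1 change was -0.69 in log2 (95% interval -1.27 to -0.11, adjusted p = 0.060), opposite in sign to those of SPRY2 and SPRY4. SPRY1 passed in 5 of 19 alternatives. In these, its adjusted p was 0.041 with upper-quartile normalization, 0.049 with DESeq2, 0.031 without Ctrl replicate 1 and 0.033 without Hemin replicate 1. It was 0.012 with the replicate number as a block, in a range of 0.012 to 0.202 over the 19 alternatives.

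SPRED1 (ENSG00000166068, chromosome 15, 38252326 to 38357249) was at 114, 107 and 110 CPM in Ctrl and at 105, 103 and 106 with DdBIC. Its change was -0.070 in log2 (95% interval -0.16 to 0.024, adjusted p = 0.231). With upper-quartile normalization it was -0.13 (adjusted p = 0.026), the one alternative of 19 in which SPRED1 passed, in a range of 0.026 to 0.513. SPRED2 (ENSG00000198369, chromosome 2, 65310851 to 65432637) was at 107, 105 and 105 CPM in Ctrl and at 105, 127 and 116 with DdBIC. The DdBIC libraries of SPRED2 spread from the Ctrl level upward, and its log2 fold change was 0.14 (95% interval -0.13 to 0.40, adjusted p = 0.398). Both intervals lay below the rises of SPRY2 and SPRY4. SPRED3, the family member outside the 10 genes, rose by 0.46 on the log2 scale (SE 0.060, adjusted p = 0.00013).

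None of the PEA3 factor genes rose. ETV4 (ENSG00000175832, chromosome 17, 43527844 to 43579620) was at 188, 194 and 191 CPM in Ctrl and at 156, 150 and 153 with DdBIC. The groups were narrow and apart, and its log2 fold change was -0.32 (SE 0.039, adjusted p = 7.3e-05). ETV1 (ENSG00000006468, chromosome 7, 13891228 to 13991425) was at 35.1, 36.9 and 38.0 CPM in Ctrl and at 28.7, 29.5 and 33.1 with DdBIC. All DdBIC libraries of ETV1 were below the lowest Ctrl library, but the log2 fold change of -0.27 (95% interval -0.51 to -0.020) had an adjusted p of 0.086. It was 0.022 without Hemin replicate 3, 0.040 with upper-quartile normalization and 0.021 with only the compared groups fitted, in a range of 0.021 to 0.217 over 19 alternatives. ETV5 (ENSG00000244405, chromosome 3, 186046308 to 186110318) was at 152, 157 and 154 CPM in Ctrl and at 153, 150 and 153 with DdBIC. Its groups overlapped, and the interval of its log2 fold change, -0.089 to 0.043, leaves out a change of the size seen in ETV4. ETV4 shares 68 exonic bases with DHX8 on the opposite strand in GENCODE 29, and DHX8 had a log2 fold change of -0.084 in the same comparison.

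PHLDA1 (ENSG00000139289, chromosome 12, 76025447 to 76033932) was at 449, 446 and 454 CPM in Ctrl and at 861, 969 and 667 with DdBIC. The Ctrl libraries were nearly equal, while the DdBIC libraries differed among themselves by 1.45 times, and 5.77% of the 9450 genes that averaged 10 CPM or more spread more widely. It shares 553 and 779 exonic bases with a pair of antisense genes in GENCODE 29, and use of strand in the counting is not given in the sources used here. PHLDA1 changed by 0.89 on the log2 scale (SE 0.21, adjusted p = 0.0089), the largest rise among the 10 genes and the least precise of the 4. EPHA2 (ENSG00000142627, chromosome 1, 16124337 to 16156087) was at 371, 369 and 359 CPM in Ctrl and at 509, 512 and 513 with DdBIC. The DdBIC libraries of EPHA2 were almost identical. It rose by 0.48 in log2 (SE 0.023, adjusted p = 5.13e-08), or 1.40-fold.

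**Figure D2:**
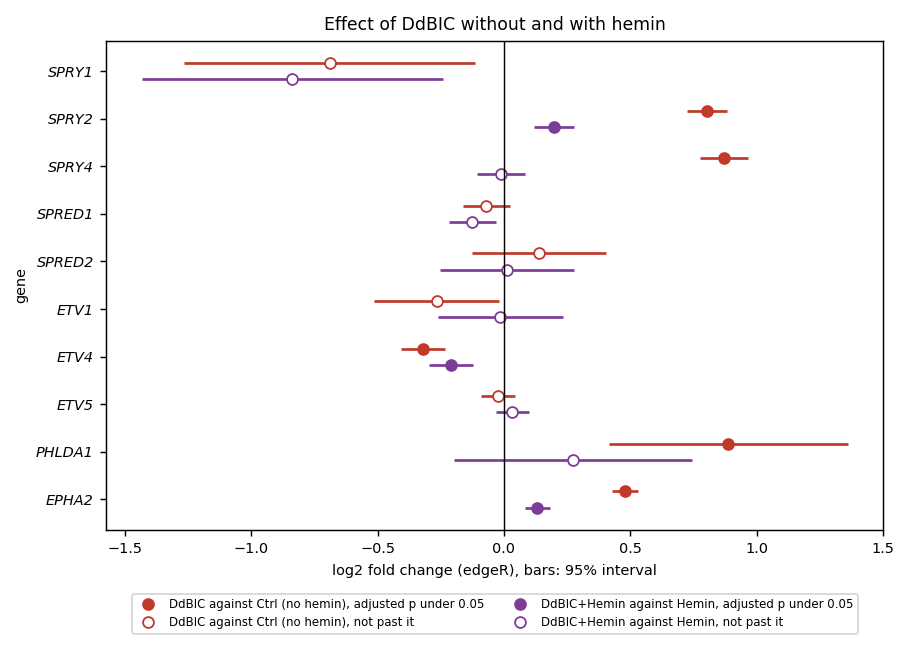
The log2 fold change of each gene for DdBIC against Ctrl and for DdBIC+Hemin against Hemin, with bars for the 95% interval and filled points for an adjusted p under 0.05. The points of SPRY2, SPRY4 and EPHA2 lie at 0.80, 0.87 and 0.48 without hemin and at 0.20, -0.01 and 0.13 with it.

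Hemin alone was compared with Ctrl next, and its effects were small. SPRY2, SPRY4, ETV4 and ETV5 fell and EPHA2 rose. Of all genes tested, 1.47% were called higher with hemin and 2.59% lower, against 1 and 4 of the 10. The median log2 fold change of the 10 genes was -0.18, and that of all genes tested was 0.0026.

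SPRY2 was at 170, 171 and 175 CPM in the Hemin libraries, below every Ctrl library. The change was -0.24 in log2 (SE 0.035, adjusted p = 0.0030). SPRY4 was at 151, 151 and 157 CPM, likewise below all of Ctrl, with a log2 fold change of -0.29 (SE 0.043, adjusted p = 0.0033). Both calls held in all 19 alternatives. ETV4 was at 160, 167 and 178 CPM with a log2 fold change of -0.18 (adjusted p = 0.026). ETV5 was at 142, 139 and 136 CPM with a log2 fold change of -0.16 (adjusted p = 0.016). EPHA2 was at 397, 397 and 395 CPM, and its log2 fold change was 0.11 (SE 0.023, adjusted p = 0.020). These 3 genes also lay outside the range of the Ctrl libraries, but their calls were not firm.

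The number of the 10 genes called with hemin fell from 5 to 2 without Ctrl replicate 2, without Ctrl replicate 3 or without Hemin replicate 2, and to 3 without Hemin replicate 1 or 3. The adjusted p of ETV4 ranged from 0.0020 to 0.103 over the alternatives, that of ETV5 from 0.00058 to 0.068 and that of EPHA2 from 0.0011 to 0.092. ETV4 no longer passed without Ctrl replicate 1, 2 or 3 or Hemin replicate 1 or 2, or with only the compared groups fitted (adjusted p = 0.068). ETV5 no longer passed without Ctrl replicate 2 or 3 or Hemin replicate 2 or 3. EPHA2 no longer passed in 6 of 19 alternatives, among them those without Ctrl replicate 2 or 3 or any Hemin replicate.

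The other genes did not pass the test with hemin. SPRED1 was at 97.7, 99.4 and 98.7 CPM, below all Ctrl libraries, with a log2 fold change of -0.16 (95% interval -0.25 to -0.065, adjusted p = 0.066). That p was 0.023 with DESeq2, 0.045 with only the compared groups fitted, 0.037 without DdBIC+Hemin replicate 2 and 0.024 without DdBIC+Hemin replicate 3, in a range of 0.023 to 0.205. SPRED2 was at 98.3, 103 and 81.4 CPM, ETV1 at 29.3, 29.5 and 39.0, and SPRY1 at 1.59, 2.57 and 2.98. In SPRED2 and ETV1 replicate 3 stood away from the other libraries, and in SPRY1 replicate 1 did. PHLDA1 was at 248, 447 and 410 CPM, where replicate 1 was low and replicate 2 was at the Ctrl level. The PHLDA1 log2 fold change was -0.29 (95% interval -0.76 to 0.18, adjusted p = 0.569).

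Hemin was then compared in the presence of DdBIC. Adding hemin to DdBIC lowered SPRY2, SPRY4, SPRED1, ETV5, PHLDA1 and EPHA2. Of all genes tested, 13.5% were called higher and 18.4% lower, against 0 and 6 of the 10. The share of all called genes that was higher went from 42.4% to 59.2% with upper-quartile normalization. With no adjustment of p, edgeR also gave 0 higher and 7 lower at p under 0.05, and DESeq2 gave 0 and 6 after adjustment. The median log2 fold change of the 10 genes was -0.26, and that of all genes tested was -0.010.

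SPRY4 fell the most. It was at 145, 147 and 163 CPM in the DdBIC+Hemin libraries, which is less than every DdBIC and every Ctrl library. Against DdBIC the log2 fold change was -1.18 (SE 0.044, adjusted p = 1.34e-08), and 2.56% of all genes tested changed by more. SPRY2 was at 191, 195 and 207 CPM, within reach of the Ctrl libraries and below all DdBIC libraries. Relative to DdBIC it changed by -0.85 in log2 (SE 0.036, adjusted p = 2.61e-08). PHLDA1 was at 476, 400 and 459 CPM, which overlapped Ctrl and lay below DdBIC. The change against DdBIC was -0.90 in log2 (SE 0.21, adjusted p = 0.0097). EPHA2 was at 430, 428 and 447 CPM, between the DdBIC and the Ctrl libraries with no overlap on either side. This was a log2 fold change of -0.23 against DdBIC (SE 0.023, adjusted p = 2.16e-05).

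SPRED1 was at 90.8, 95.8 and 84.7 CPM, below every library of the other groups. Compared with DdBIC it changed by -0.21 in log2 (SE 0.043, adjusted p = 0.0028). ETV5 was at 141, 138 and 147 CPM, and its log2 fold change of -0.099 (adjusted p = 0.027) was the smallest of the 6 that passed. It no longer passed without DdBIC replicate 1 (adjusted p = 0.079) or 3 (0.085), or without DdBIC+Hemin replicate 1 (0.081) or 2 (0.101). With upper-quartile normalization its log2 fold change was -0.037 (adjusted p = 0.396), and with only the compared groups fitted the adjusted p was 0.140, in a range of 0.0081 to 0.396 over 19 alternatives. ETV5 also shares 164 exonic bases with DGKG on the same strand, and DGKG had a log2 fold change of 0.39 in this comparison.

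ETV4 was at 144, 142 and 151 CPM, overlapping DdBIC, with a log2 fold change of -0.072 (95% interval -0.16 to 0.014, adjusted p = 0.195). ETV1 was at 36.1, 30.2 and 30.5 CPM with a log2 fold change of 0.082 (95% interval -0.16 to 0.33, adjusted p = 0.630). SPRY1 was at 1.01, 1.52 and 1.46 CPM, below every library of the other groups, from counts of 41 to 64. The SPRY1 log2 fold change against DdBIC was -0.55 (95% interval -1.15 to 0.045, adjusted p = 0.151). SPRY1 passed in 1 of 19 alternatives, that with the replicate number as a block (range of adjusted p 0.035 to 0.377). SPRED2 was at 86.6, 86.0 and 113 CPM, and its log2 fold change of -0.29 (adjusted p = 0.092) became -0.43 (adjusted p = 0.010) without DdBIC+Hemin replicate 3, with a range of adjusted p of 0.010 to 0.261.

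**Figure D3:**
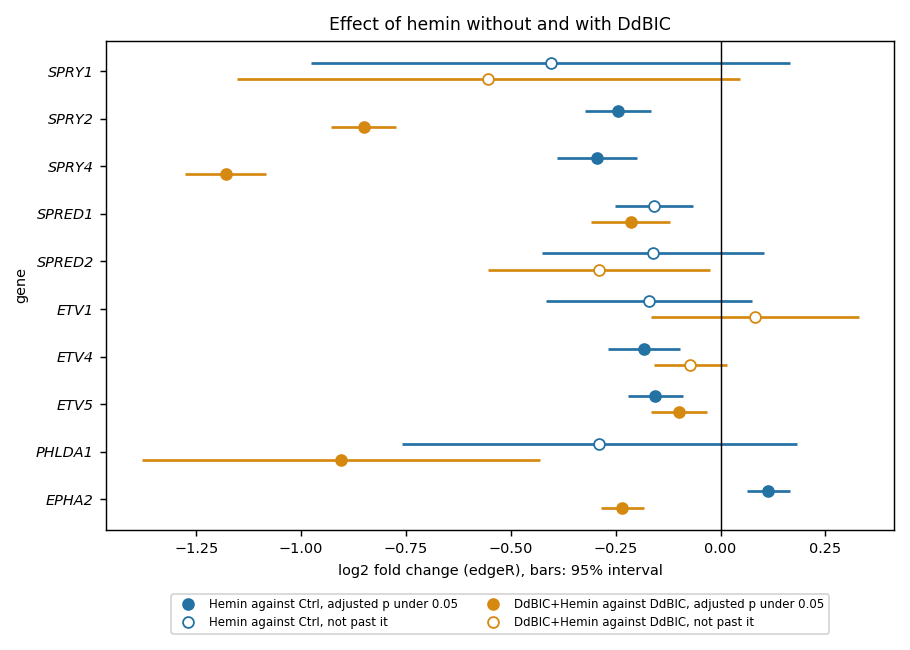
The log2 fold change of each gene for Hemin against Ctrl and for DdBIC+Hemin against DdBIC, with bars for the 95% interval and filled points for an adjusted p under 0.05. SPRY4 lies at -0.29 without DdBIC and at -1.18 with it, SPRY2 at -0.24 and -0.85, and EPHA2 at 0.11 and -0.23.

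Whether the DdBIC effect differed with hemin was tested by the interaction, the log2 fold change of DdBIC in hemin-treated cells minus that in cells without hemin. Of all genes tested, 6.40% had a higher effect with hemin and 10.2% a lower one, against 0 and 3 of the 10. Of all genes called, the share with a higher effect went from 38.5% to 55.4% with upper-quartile normalization. Without adjustment edgeR also gave 0 higher and 3 lower at p under 0.05, and DESeq2 gave the same counts after adjustment. The interaction was -0.61 for SPRY2 (SE 0.050, adjusted p = 1.32e-05), -0.88 for SPRY4 (SE 0.061, adjusted p = 4.0e-06) and -0.35 for EPHA2 (SE 0.033, adjusted p = 3.69e-05). For PHLDA1 it was -0.62 (95% interval -1.28 to 0.050, adjusted p = 0.207), near that of SPRY2 but with a wider interval. Without Hemin replicate 1, the library in which PHLDA1 was low, it was -0.83 with an adjusted p of 0.020, in a range of 0.020 to 0.376 over 18 alternatives. The interaction of ETV1 was 0.25 (adjusted p = 0.334) and passed only without Hemin replicate 3, where it was 0.40 (adjusted p = 0.048, range 0.048 to 0.564). ETV4 had an interaction of 0.11 (95% interval -0.011 to 0.23, adjusted p = 0.219). The median interaction of the 10 genes was -0.14, and that of all genes tested was -0.0091.

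In hemin-treated cells, DdBIC still raised SPRY2 and EPHA2 and lowered ETV4. Of all genes tested, 3.71% were called higher in DdBIC+Hemin than in Hemin and 3.09% lower, against 2 and 1 of the 10, and the higher share of the called genes went from 54.6% to 42.3% when scaled by library size only. In log2 the change was 0.20 for SPRY2 (SE 0.035, adjusted p = 0.0066), 0.13 for EPHA2 (SE 0.023, adjusted p = 0.0057) and -0.21 for ETV4 (SE 0.039, adjusted p = 0.0084). The libraries of the compared groups did not overlap in any of these genes. ETV4 no longer passed with only the compared groups fitted (adjusted p = 0.056). SPRY4 had a log2 fold change of -0.012 (95% interval -0.11 to 0.083, adjusted p = 0.919), an interval that leaves out the rise it showed without hemin. SPRY1 had a log2 fold change of -0.84 (95% interval -1.43 to -0.24, adjusted p = 0.100), close to the value without hemin. That p was 0.044 without Hemin replicate 1 and 0.026 with the replicate number as a block, in a range of 0.026 to 0.281. SPRED1 passed only without DdBIC+Hemin replicate 2, with a log2 fold change of -0.17 (adjusted p = 0.039, range 0.039 to 0.284) against -0.12 with all libraries. The median was -0.00038 for the 10 genes and -0.0018 for all genes tested.

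Cells given both agents were also set against Ctrl, which is the same control group as in the first comparisons. SPRY1, SPRY4, SPRED1, ETV4 and ETV5 were lower and EPHA2 was higher. Of all genes tested, 5.66% were called higher and 6.74% lower, against 1 and 5 of the 10, and the higher share of the called genes went from 45.6% to 34.4% when scaled by library size only. SPRY1 had the largest change, a log2 fold change of -1.24 (SE 0.27, adjusted p = 0.011), with all 3 libraries below Ctrl and with few counts behind it. SPRY4 had a log2 fold change of -0.31 (SE 0.043, adjusted p = 0.00090), so the transcript that DdBIC raised 1.83-fold was below its untreated level when hemin was present. SPRED1 had a log2 fold change of -0.28 (SE 0.043, adjusted p = 0.0014), ETV4 of -0.39 (SE 0.039, adjusted p = 7.8e-05) and EPHA2 of 0.25 (SE 0.023, adjusted p = 5.38e-05). SPRY2 did not pass, and the interval of its log2 fold change of -0.046 was narrow (-0.12 to 0.032, adjusted p = 0.471). PHLDA1 had -0.016 with a far wider interval (-0.49 to 0.45, adjusted p = 0.973). ETV5 had -0.12 (adjusted p = 0.023), and its adjusted p was 0.082 without Ctrl replicate 2, 0.065 without Ctrl replicate 3, 0.075 without DdBIC+Hemin replicate 1, 0.080 without replicate 2 and 0.078 with only the compared groups fitted, in a range of 0.0075 to 0.082. The median was -0.17 for the 10 genes and 0.0013 for all genes tested.

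Other genes of the pathway were described by lists, some of which share genes. Beside their counts stand the shares over all genes tested. DdBIC raised 20.0% and lowered 17.2%, and hemin added to DdBIC raised 13.5% and lowered 18.4%, and these shares shift with upper-quartile normalization as given above. Of 11 dual-specificity phosphatases of MAP kinases, 10 rose with DdBIC and 0 fell, with a median log2 fold change of 1.51, and 10 were lower when hemin was added to DdBIC. The count that fell was also 0 at an unadjusted p under 0.05 and with DESeq2. The largest rises were those of DUSP8 at 4.25, DUSP1 at 3.10 and DUSP2 at 2.90. DUSP8, DUSP10 and DUSP16 are known to act on JNK and p38, and DUSP1 on these kinases as well as ERK. The median is the value of DUSP16. Among those that act mainly on ERK, DUSP5 had 2.36, DUSP7 had 0.38 and DUSP9, the gene that did not pass, had -0.079 (adjusted p = 0.534). DUSP6, the cytoplasmic ERK phosphatase, was at 151, 152 and 218 CPM in Ctrl and at 358, 500 and 508 with DdBIC, a log2 fold change of 1.39 (SE 0.19, adjusted p = 0.00045). DUSP4, a nuclear ERK phosphatase, rose by 0.45 (SE 0.024, adjusted p = 1.03e-07), which is near the value of EPHA2.

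Of 20 ERK output genes outside the 10, which include DUSP4 and DUSP6 of the phosphatases above and EPHA4, 11 rose and 2 fell with DdBIC, with a median of 0.51, against 20.0% and 17.2% of all genes. EGR1 had a log2 fold change of 6.51, FOS of 5.52 and IER3 of 2.50, all early response genes, against a largest value of 0.89 among the 10 genes. CCND1, the cyclin D1 gene, had 0.019 (SE 0.035, adjusted p = 0.717). When hemin was added to DdBIC, 3 of these 20 were higher and 9 lower, against 13.5% and 18.4% of all genes.

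Of 24 other ETS factor genes, 17 passed the filter on low counts, and of these 9 rose and 0 fell with DdBIC, led by ETS1 at 1.03, ETV3 at 0.78 and ETS2 at 0.49, against 20.0% and 17.2% of all genes. The count that fell was again 0 without adjustment and with DESeq2. ETV3 is a transcriptional repressor of the ETS family, and ETS1 and ETS2 are activators that ERK phosphorylates. The ETS factors called in this list thus moved in the direction opposite to ETV4. Of 7 genes for repression or degradation of the PEA3 factors, 3 rose and 1 fell, beside the same 20.0% and 17.2%. CIC rose by 0.24 (SE 0.045) and ATXN1, its partner, by 0.20 (SE 0.040), while DDB1, a subunit of the ubiquitin ligase that degrades these factors, had -0.26 (SE 0.021).

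Of 13 partners and regulators of Sprouty and SPRED proteins, 2 rose and 2 fell with DdBIC, a count for each direction slightly below the 20.0% and 17.2% of all genes. SIAH2, a ubiquitin ligase that binds Sprouty2, had 0.62 (SE 0.055), SPRED3 had 0.46, and NF1, the gene of neurofibromin, had -0.30 (SE 0.088). Of 22 components of the RAS-RAF-MEK-ERK cascade, which include GRB2, PTPN11, NF1 and HRAS of the partners, 6 rose and 4 fell, again near those shares. The kinase BRAF was at 40.7, 38.9 and 38.4 CPM in Ctrl and at 57.8, 58.5 and 58.0 with DdBIC, a log2 fold change of 0.56. The adaptor FRS2 had a larger value, 1.25, but was at 29.6, 13.4 and 14.3 CPM in Ctrl and 37.1, 47.7 and 51.6 with DdBIC, so its Ctrl libraries spread widely. The scaffold KSR1 had 0.88 from 6.53, 5.72 and 6.63 CPM in Ctrl and 15.6, 6.30 and 13.0 with DdBIC, where replicate 2 lay within the Ctrl range. Of 16 growth factor receptor genes that Sprouty proteins act below, 13 passed the filter, 1 rose and 4 fell, against 20.0% and 17.2% of all genes, with ERBB3 at -0.34, PDGFRB at -0.33 and EGFR at 0.27.

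**Figure D4:**
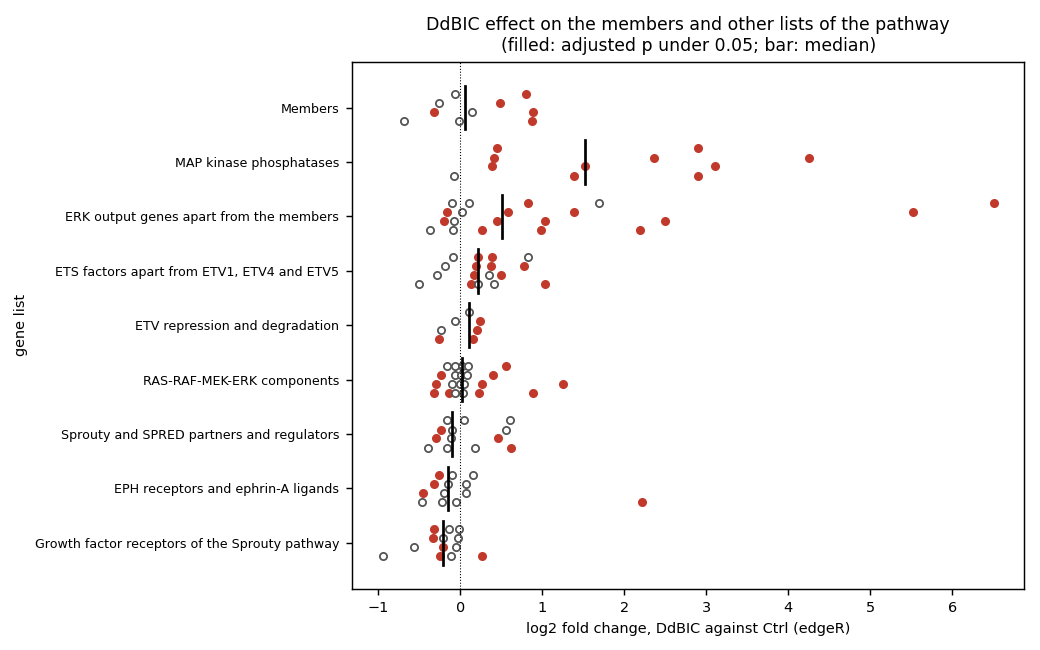
The log2 fold change for DdBIC against Ctrl of each tested gene in 9 lists, with filled points for an adjusted p under 0.05 and a bar for the list median. The 10 genes (top line, median 0.058) lie between -0.69 and 0.89, and the MAP kinase phosphatases reach 4.25.

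EPHA2 belongs to a family of receptors whose ligands, the ephrins, sit on neighbouring cells. Of 18 other EPH receptors and ephrin-A ligands, 13 passed the filter, 1 rose and 3 fell with DdBIC, against 20.0% and 17.2% of all genes. The gene that rose was EFNA1, which encodes ephrin-A1, a ligand of EPHA2. EFNA1 was at 12.7, 14.1 and 11.9 CPM in Ctrl and at 64.2, 53.7 and 62.4 with DdBIC. It was at 9.59, 9.87 and 8.50 CPM in Hemin and at 13.9, 11.3 and 12.4 in DdBIC+Hemin. Ligand and receptor were thus both highest in the DdBIC libraries, and with hemin added EFNA1 overlapped Ctrl while EPHA2 did not. The log2 fold change of EFNA1 was 2.22 with DdBIC (SE 0.10, adjusted p = 3.38e-08) and -2.26 when hemin was added to it (adjusted p = 4.72e-08). EPHB4 had -0.45 and EFNA5 -0.32 with DdBIC, and EPHA4, a receptor of both ephrin classes, had -0.097 (adjusted p = 0.288).

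The relatives of PHLDA1 moved in opposite directions. PHLDA2, an imprinted growth regulator, rose with DdBIC by 0.87 (SE 0.052, adjusted p = 3.03e-07), almost the value of PHLDA1. When hemin was added it fell by 0.69 on the log2 scale (adjusted p = 2.74e-06). PHLDA3, a p53 target that restrains AKT, had -0.33 with DdBIC (SE 0.030, adjusted p = 7.48e-06) and 0.15 when hemin was added (adjusted p = 0.0024).

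The gene used for a search of like patterns was the one with the widest range of group means in log2 (CPM + 0.5), a scale on which PHLDA1 had 1.20, SPRY4 1.18, SPRY2 1.05 and SPRY1 0.99. The offset narrows the range of SPRY1, whose fitted log2 fold change reached -1.24. Over the 12 libraries, the 5 genes of 10678 with at least 5 CPM whose log2 CPM was most like that of PHLDA1 were REL (Pearson r = 0.958), TRAF6 (0.949), EP300 (0.937), CDK11A (0.936) and PLPP5 (0.932). REL encodes an NF-kB subunit and EP300 a histone acetyltransferase. The libraries fall into 4 treatment groups and each gene was measured in the same libraries, so these values describe a shared pattern only. REL averaged 12.4 CPM in Ctrl, 43.9 in DdBIC, 9.53 in Hemin and 14.0 in DdBIC+Hemin. Within the Hemin group REL was at 4.73, 12.9 and 11.0 CPM, low in replicate 1 as PHLDA1 was, and TRAF6 was at 10.3, 13.7 and 15.6. REL and TRAF6 were picked for likeness over all libraries, those of the Hemin group included, so this is not a separate likeness. In that group PHLDA1 differed between libraries by 1.80 times, where the median over 9450 genes that averaged 10 CPM or more was 1.07. EPHA2 differed by 1.01 and SPRY2 by 1.03 times there. SPRY1 was also lowest in Hemin replicate 1, at 1.59 CPM against 2.57 and 2.98, as it was in replicate 1 of each other group.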

How the data were processed

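RNA of the 12 samples was extracted with Trizol and sequenced by a service company. The submitters' processing notes name Trim Galore, Subread and featureCounts and the build hg38, and their versions, settings and use of strand are not given in the sources used here. The authors deposited 1 table of 20263 genes with a count of reads per gene and library, which was not normalized, and with TPM and FPKM values scaled by length and depth.

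The tests used edgeR (version 4.0.16, R 4.3.3) on the counts (filterByExpr, TMM, robust quasi-likelihood fit of 4 group means with 8 residual degrees of freedom, Benjamini-Hochberg adjustment over 14287 genes). Each standard error was obtained as the size of the log2 fold change divided by the square root of its F. TPM, as deposited, served for comparing genes, and FPKM, as deposited, for the gene length implied in each library. The steps were tested on simulated data. The 10 genes, the pathway and marker lists and the rule for named genes (all 10 genes, at most the 3 largest called changes per list with DdBIC, and 9 genes set by name, among them HMOX1) were chosen with earlier results of these data known. DHX8 and DGKG, which share exons with ETV4 and ETV5, DUSP5, DUSP7, DUSP9, DUSP10 and DUSP16, and the markers named were picked after their values were seen. A marker of the lists, other than those named, is not reported here. Alternatives were DESeq2 1.42.0, other scalings and filters, fewer groups, a replicate block, leaving out each library, and a minimum fold change. Promoter windows came from RefSeq (GRCh38.p14) and exon overlaps from GENCODE 29. Counting limits cover counting error only.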

Additional observations from a re-analysis of the deposited data

Results flagged for a closer look

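For 3 of the 10 genes the DdBIC effect differed between cells with and without hemin by the test of the difference itself. The effect with hemin minus that without was -0.61 for SPRY2, -0.88 for SPRY4 and -0.35 for EPHA2 on the log2 scale (edgeR interaction term, adjusted p = 1.32e-05, 4.0e-06 and 3.69e-05). All 3 kept their direction and passed the threshold in each of 18 alternatives.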

How the results depend on the processing

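Over 1130 values (each of the 10 genes in each comparison under each alternative other than a minimum fold change), 1081 kept their direction where called and their side of the threshold, 29 lost a call, 20 gained a call and 0 reversed. The number of the 10 genes called in DdBIC against Ctrl rose from 5 to 8 with upper-quartile normalization, which added SPRY1, SPRED1 and ETV1 as lower. In Hemin against Ctrl it ranged from 2 to 6 when single libraries were left out, against 5. With a log2 fold change of 1 or more in size also required, the counts were 0 in DdBIC against Ctrl, 0 in Hemin against Ctrl, 1 in DdBIC+Hemin against DdBIC, 0 in DdBIC+Hemin against Hemin, 1 in DdBIC+Hemin against Ctrl and 0 in the interaction. Each of these counts of 0 was also 0 at an unadjusted p under 0.05 and with DESeq2. Of all 14287 genes tested, the same requirement left 502, 16, 323, 46, 82 and 278 called, in the same order of comparisons.

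Among all genes, the called share that was higher moved with upper-quartile normalization from 53.8% to 40.0% in DdBIC against Ctrl, from 42.4% to 59.2% in DdBIC+Hemin against DdBIC and from 38.5% to 55.4% in the interaction. With library size only it moved to 42.3% in DdBIC+Hemin against Hemin and 34.4% in DdBIC+Hemin against Ctrl. A required log2 fold change of 1 or more in size moved the share the other way in these comparisons. It was then 87.8% in DdBIC against Ctrl, 9.29% in DdBIC+Hemin against DdBIC and 6.12% in the interaction. The share became 71.7% in DdBIC+Hemin against Hemin and 68.3% in DdBIC+Hemin against Ctrl. In Hemin against Ctrl it went from 36.2% to 50%. The number of genes called in Hemin against Ctrl, 580, was 909 with DESeq2 and 272 to 373 without single Ctrl or Hemin libraries. In DdBIC+Hemin against Hemin, 971 became 569 with only these groups fitted and 612 to 625 without Hemin replicate 1 or 3 or DdBIC+Hemin replicate 1. The cause of these shifts was not tested.

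Deviations of same-numbered libraries of different groups correlated at -0.059 to 0.058, and those of libraries with unlike numbers at -0.076 to 0.118. Across genes the same-numbered libraries were thus no more alike than others. Whether they shared a culture or a batch was not tested. With the replicate number as a block, 6, 4, 6, 4, 6 and 3 of the 10 genes were called in the order of comparisons above, against 5, 5, 6, 3, 6 and 3. The block gave SPRY1 a call as lower in DdBIC against Ctrl (adjusted p = 0.012), DdBIC+Hemin against DdBIC (0.035) and DdBIC+Hemin against Hemin (0.026), and it ended the calls of EPHA2 in Hemin against Ctrl (0.055) and ETV5 in DdBIC+Hemin against DdBIC (0.0503). FPKM gives the same order of genes by construction, since TPM is FPKM times a constant per library. SPRY1, at 41 to 154 counts per library, had the fewest counts of the 10 genes, and how far depth limits its results was not tested.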
